A study of Rattus norvegicus with 12 samples.

Results

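The CDK inhibitors and the RB family were described as a set of 10 genes, which comprised the Cip/Kip inhibitors Cdkn1a (p21), Cdkn1b (p27) and Cdkn1c (p57), the INK4 inhibitors Cdkn2a (p16, with Arf), Cdkn2b (p15), Cdkn2c (p18) and Cdkn2d (p19), and the pocket proteins Rb1, Rbl1 (p107) and Rbl2 (p130). Members were chosen by gene symbol, and every probe set that carries 1 of these symbols alone was taken. All 10 genes were on the array, with 14 probe sets of the 31042 that are not array controls. The genes with a probe set of their own numbered 14217 in the whole series. RNA came from 2 rat liver epithelial cell lines on 12 Affymetrix Rat Genome arrays, in 4 groups of 3 arrays. WB-F344, derived from an adult male Fischer rat, is diploid, not tumorigenic and labelled sensitive to rapamycin, with a doubling time of 42 h. WB311 arose spontaneously from WB-F344 and is tumorigenic, labelled resistant, with a doubling time of 15.5 h. Each line was exposed for 24 h to 50 nM rapamycin, an inhibitor of the kinase mTOR, or to the DMSO vehicle. All groups were grown in the same serum-containing medium, and triplicate plates were used. The p-values therefore measure the spread between plates within a line, pooled over the 4 groups of both lines. A p-value for WB311 thus also carries the spread between WB-F344 plates. Each line is a single culture history, and line, passage and growth rate cannot be told apart. The study asked how the transcript response to rapamycin compares between a sensitive and a resistant line.

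CDK inhibitors bind cyclin-dependent kinases and restrain passage from G1 to S phase. The INK4 proteins bind Cdk4 and Cdk6, while the Cip/Kip proteins bind a wider range of cyclin and kinase complexes. Hypophosphorylated pocket proteins hold E2F transcription factors and repress the genes for DNA replication, and their phosphorylation by the G1 kinases lifts that repression. mTOR inhibition is known to slow G1 progression in many cells. These steps act largely on protein, which the arrays do not measure.

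The values are linear RMA intensities, a scale without units that is comparable between arrays for 1 probe set but not between probe sets. Array medians lay between 59.5 and 62.9. A probe set was tested where at least 1 of the groups compared averaged 100 or more, and was called where the limma test gave a Benjamini-Hochberg adjusted p under 0.05 with a fold change of at least 1.2. A gene with 2 probe sets is represented by the brighter. The labelled liver origin was compared with marker genes. Of the 8 hepatocyte markers measured, 7 stayed under 100 in every group, with albumin (Alb) at 33.2 in WB-F344 with vehicle, and transthyretin (Ttr) averaged 96.9 to 103 across the groups. Of the 6 mesenchymal markers 5 averaged at least 100 in WB-F344 and 3 in WB311, with Col1a1 at 12835 and 200.1 with vehicle, while Pdgfrb was under 100 in both, at 55.2 and 63.1. Of the biliary and progenitor markers, keratin 7 (Krt7) was 5533 in WB-F344 and 76.5 in WB311 with vehicle, whereas keratin 19 (Krt19) was 23.1 and 109.9. The summed intensity of the 6 mesenchymal markers ran from 28467 to 37092 on the WB-F344 arrays and from 1461 to 1808 on the WB311 arrays. Such a sum follows the brightest probe sets and does not describe each marker. In WB-F344 with vehicle these were Col1a1, at 12835, and Col1a2, at 13931. Of the 4 endothelial markers, Tek alone passed 100, at 994.8 in WB311 with vehicle, while the defining markers Pecam1, Ptprc and Epcam averaged 22.9 or lower in every group. The sum of the 6 leukocyte markers ran from 656 to 785 on the vehicle arrays of WB-F344 and from 1158 to 1415 on its rapamycin arrays, most of it Cd14, which averaged 566 and 1123. The part of these genes in the results was not tested. In bulk RNA, fewer cells that express a gene and less of its RNA per cell cannot be told apart.

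The WB-F344 plates numbered 2 stood apart from the others in RNA integrity. The log2 difference between the 3' and 5' control probe sets for Gapdh was 0.34 on the vehicle array and 0.17 on the rapamycin array of that number, against -0.12 to -0.04 on the other 10. The same difference for actin was 1.04 and 0.62, against 0.21 to 0.49. Where leaving out both plates changed whether a member's probe set was called, the value without them is given too.

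**Figure D1:**
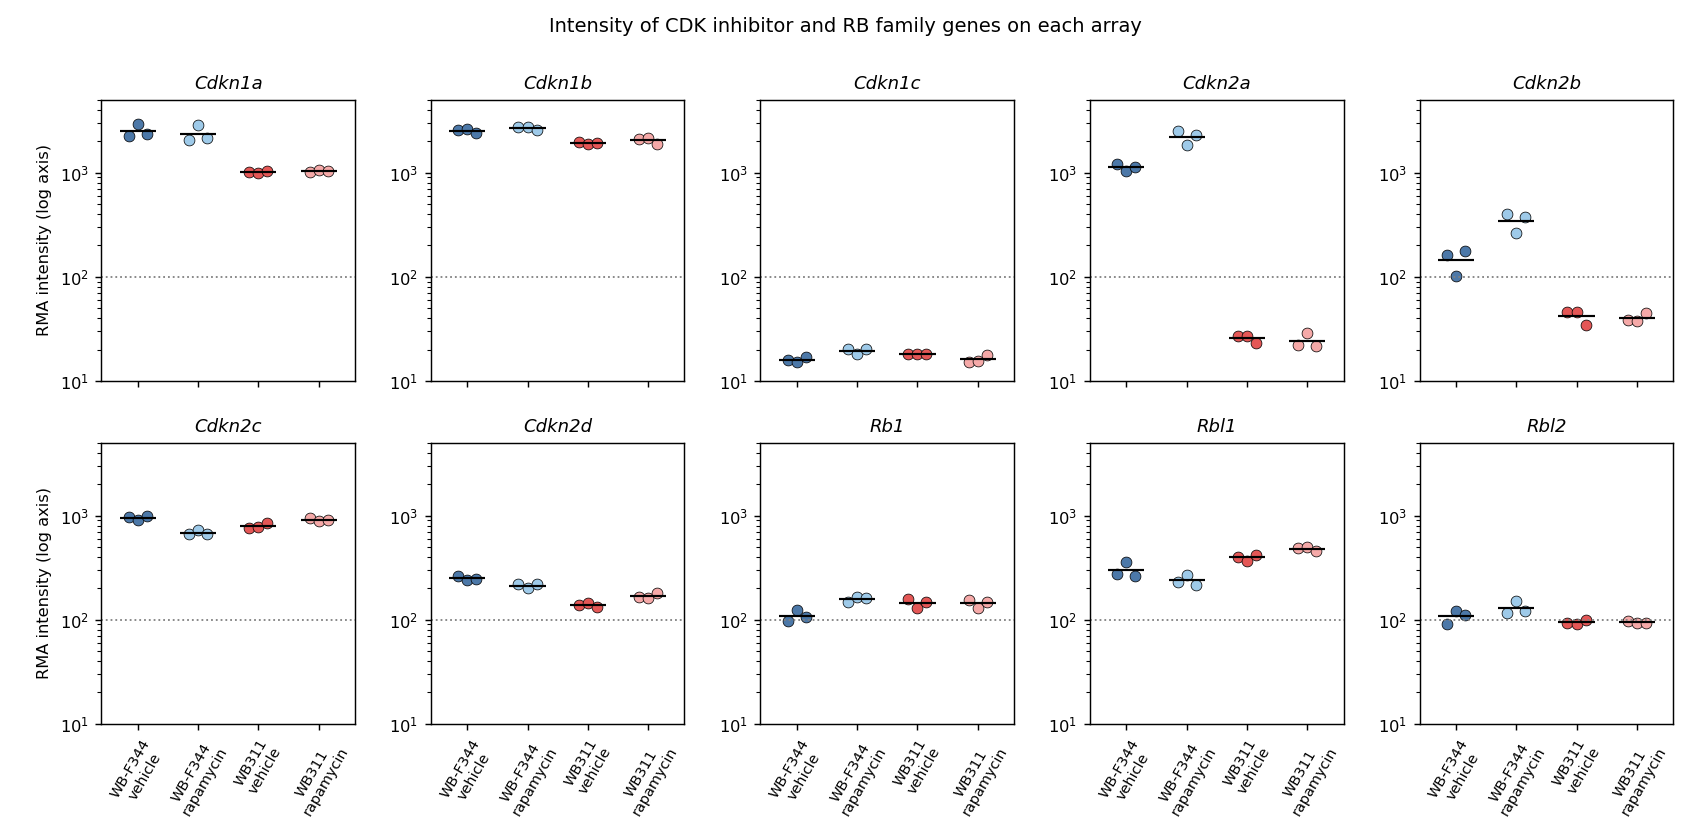
RMA intensity of the brighter probe set of each gene, on a log axis, for the 4 groups. Each point is 1 array, the bars are means of 3 arrays, and the dotted line marks the intensity of 100 below which a group was not counted as expressed; Cdkn2a and Cdkn2b lie under it on all 6 WB311 arrays, and Cdkn1c on all 12.

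With rapamycin in WB-F344, the INK4 genes Cdkn2a and Cdkn2b rose, Cdkn2c fell and Cdkn2d was not called, while Rb1 rose and no Cip/Kip gene passed the test. Of the 9 members tested in WB-F344, 4 were called, 3 higher and 1 lower, in a comparison where 22.6% of all probe sets tested were called, 7.58% higher and 15.0% lower. The median log2 fold change of the 9 was 0.09, and that of all probe sets tested was -0.05. In WB311, 1 of the 6 members tested was called, where 3.72% of all probe sets were, 1.87% higher and 1.85% lower. The median of those 6 was 0.14, against 0.01 for all probe sets. The vehicle and rapamycin arrays did not overlap for 34.3% of all probe sets tested in WB-F344 and 38.7% in WB311, which is the background for each statement on overlap below.

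**Figure D2:**
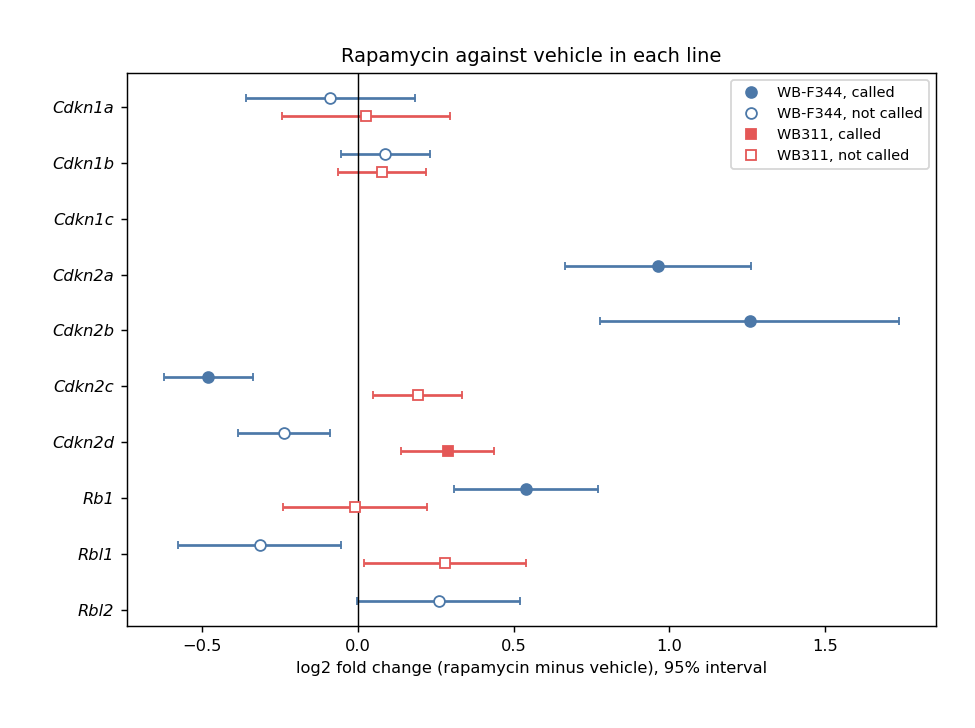
Log2 fold change of rapamycin against vehicle for each member tested, with its 95% interval from the limma fit on 12 arrays; circles are WB-F344, squares WB311, and filled symbols were called. Cdkn2a and Cdkn2b lie farthest to the right in WB-F344 and have no WB311 point, and Cdkn2c, Cdkn2d and Rbl1 lie left of 0 in WB-F344 and right of it in WB311.

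Cdkn2a encodes p16, which binds Cdk4 and Cdk6, and from another first exon Arf, which holds back Mdm2. Its probe set carries no label that tells those transcripts apart. In WB-F344 its intensity was 1218, 1043 and 1131 with vehicle and 2493, 1850 and 2306 with rapamycin. Every rapamycin array lay above every vehicle array. The increase was 1.95-fold, a log2 fold change of 0.96 ± 0.14 (SE, n = 3 and 3, limma adjusted p = 0.00051). In WB311 its intensity was 27.1, 26.9 and 23.4 with vehicle and 22.0, 28.7 and 21.5 with rapamycin. All of these lie far under 100 and overlap, so a response to rapamycin in WB311 was not measured.

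The difference between the lines for Cdkn2a was the largest among the members. With vehicle the log2 difference, WB311 minus WB-F344, was -5.46 ± 0.14 (SE, limma adjusted p = 7.1e-11), and with rapamycin it was -6.53 ± 0.14 (limma adjusted p = 1.88e-11). Set against the intensity of 100 rather than the dim WB311 signal, WB-F344 was at least 11.3-fold higher with vehicle and at least 22.2-fold higher with rapamycin. The arrays of the lines did not overlap.

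Cdkn2b lies beside Cdkn2a in the genome and encodes p15, an INK4 inhibitor known as a target of TGF-beta signalling. Its WB-F344 intensity was 161.7, 102.3 and 175.1 with vehicle and 401.2, 261.6 and 377.4 with rapamycin. The groups did not overlap, and on each treatment the plate numbered 2 was the lowest. The increase was 2.39-fold, with a log2 fold change of 1.26 ± 0.22 (SE, n = 3 and 3, limma adjusted p = 0.00169), and without both plates numbered 2 it was 1.21 (limma adjusted p = 0.000117). In WB311 the 6 arrays read 34.4 to 45.6, below 100 and overlapping. The log2 difference between the lines was -1.78 with vehicle (limma adjusted p = 3.09e-05) and -3.09 with rapamycin (limma adjusted p = 2.82e-07), which against the intensity of 100 is at least 1.46-fold and at least 3.47-fold higher in WB-F344.

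The RefSeq promoter windows of this gene pair are shown because both genes moved together and both were dim in the same line. Each window runs from 250 bases before to 50 bases after the transcript start in the rat build GRCr8, 5′ to 3′ on the gene's strand. For Cdkn2a the window is chr5:109107907-109108206 on the minus strand, at a start inside the span of the gene, and for Cdkn2b it is chr5:109134806-109135105 on the minus strand. They hold 13 and 21 CG dinucleotides, where the median over 33469 rat promoter windows is 7 with quartiles of 3 and 19. Capitals would mark an E2F site, spelled as TTTCCCGC, TTTGGCGC, TTTCGCGC or TTTGCCGC on either strand, and neither window holds those letters. No window at any other start of Cdkn2a was searched.
Cdkn2a: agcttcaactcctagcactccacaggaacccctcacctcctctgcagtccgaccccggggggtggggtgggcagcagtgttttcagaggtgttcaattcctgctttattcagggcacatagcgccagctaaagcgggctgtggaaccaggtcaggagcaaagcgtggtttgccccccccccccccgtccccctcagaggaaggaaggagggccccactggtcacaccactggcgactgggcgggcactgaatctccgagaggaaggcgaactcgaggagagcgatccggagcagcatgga
Cdkn2b: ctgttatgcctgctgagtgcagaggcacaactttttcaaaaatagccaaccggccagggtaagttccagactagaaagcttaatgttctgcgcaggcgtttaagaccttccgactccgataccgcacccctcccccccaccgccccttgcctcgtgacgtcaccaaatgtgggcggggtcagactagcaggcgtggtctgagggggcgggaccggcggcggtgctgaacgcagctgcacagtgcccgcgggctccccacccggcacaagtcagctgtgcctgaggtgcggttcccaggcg

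The genes on either side of this pair were measured too, taken as the 3 nearest with a probe set in RefSeq order. On one side, Mtap, which encodes a methionine salvage enzyme and has 2 annotated genes between it and the pair, was higher in WB311 by a log2 difference of 1.89 with vehicle (limma adjusted p = 2.3e-08). Its mean intensity was 691 ± 103 (SD, n = 3) in WB-F344 and 2536 ± 38.9 in WB311. Klhl9, with 24 annotated genes between, was higher in WB311 by 1.01 (limma adjusted p = 4.11e-05). Caap1 on the far side, with 38 between, was higher by 0.49 (limma adjusted p = 6.39e-05). Ifnb1, Dmrta1 and Elavl2 averaged under 100 in both lines. The neighbours that were measurable were thus all brighter in the line where the INK4 pair was dim, but only Mtap lay close to the pair. Of all probe sets tested with vehicle 27.6% were called higher in WB311. None of the measurable neighbours was called with rapamycin in either line.

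Cdkn2c encodes p18, an INK4 inhibitor expressed in cycling and differentiating cells. In WB-F344 its intensity was 968.7, 909.2 and 983.1 with vehicle and 660.8, 725.1 and 664.9 with rapamycin. The groups did not overlap, and the gene fell by 0.48 ± 0.065 on the log2 scale (SE, n = 3 and 3, limma adjusted p = 0.000387), a 1.40-fold decrease. In WB311 it was 767.0, 779.1 and 845.2 with vehicle and 952.4, 879.7 and 900.7 with rapamycin. These groups did not overlap either, and lay in the other order, but the log2 fold change of 0.19 was not called (limma adjusted p = 0.134, 95% interval 0.05 to 0.34). The effects differed between the lines by 0.67 ± 0.093 (SE, limma adjusted p = 0.00135).

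With vehicle Cdkn2c differed between the lines by a log2 difference of -0.26 (limma adjusted p = 0.00512), 1.197-fold and so just short of the fold required, and it was called without both WB-F344 plates numbered 2, at -0.29 (limma adjusted p = 0.00134). With rapamycin WB311 was higher by 0.41 (limma adjusted p = 0.000195). The line with more Cdkn2c signal was therefore WB-F344 on every vehicle array and WB311 on every rapamycin array. The second Cdkn2c probe set, of a kind the maker marks as open to cross-hybridisation, read 66.7 to 96.5 on the 12 arrays and was not tested.

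Cdkn2d encodes p19, the INK4 inhibitor whose level is known to vary through the cell cycle. In WB-F344 it was 264.1, 241.9 and 245.4 with vehicle and 219.1, 200.2 and 218.5 with rapamycin. The groups did not overlap, and the log2 fold change of -0.24 passed the adjusted p (0.0238, limma) but at 1.18-fold not the fold required. In WB311 it was 139.3, 144.0 and 132.6 with vehicle and 164.2, 162.7 and 181.2 with rapamycin. Here it was the only member called, at 0.29 ± 0.067 (SE, n = 3 and 3, limma adjusted p = 0.0392), a 1.22-fold rise close to both thresholds, and this call was lost in 16 of the 25 alternative settings that gave a value. The effects differed between the lines by 0.52 ± 0.096 (SE, limma adjusted p = 0.0061).

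The second Cdkn2d probe set was measured at 227.1, 173.9 and 228.5 with vehicle and 184.9, 157.3 and 164.5 with rapamycin in WB-F344. It gave a log2 fold change of -0.30 there (limma adjusted p = 0.0561) and of 0.23 in WB311 (limma adjusted p = 0.279), neither called. The WB-F344 value was called with the plate number as a block within each line (limma adjusted p = 0.0125), and at -0.39 without both plates numbered 2 (limma adjusted p = 0.0032). Its effects differed between the lines by 0.54 (limma adjusted p = 0.0455). Both probe sets thus gave the same order. Between the lines with vehicle Cdkn2d was lower in WB311 by log2 differences of -0.85 and -0.90 (limma adjusted p = 9.37e-07 and 2.42e-05), and with rapamycin by -0.33 and -0.36 (limma adjusted p = 0.00134 and 0.0113).

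Of the Cip/Kip genes, Cdkn1a and Cdkn1b were well above 100 and Cdkn1c was not. Cdkn1a encodes p21, a target of p53 that inhibits Cdk2 complexes and binds PCNA. Its brighter probe set read 2230, 2921 and 2365 with vehicle and 2070, 2855 and 2173 with rapamycin in WB-F344. The groups overlapped, with a log2 fold change of -0.09 (95% interval -0.36 to 0.18, limma adjusted p = 0.644). In WB311 it read 1020, 1002 and 1026 with vehicle and 1014, 1050 and 1042 with rapamycin, a log2 fold change of 0.03 (95% interval -0.24 to 0.30, limma adjusted p = 0.952).

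Between the lines Cdkn1a was lower in WB311, by a log2 difference of -1.29 ± 0.12 with vehicle (SE, limma adjusted p = 4.19e-06) and -1.18 ± 0.12 with rapamycin (limma adjusted p = 7.36e-06). No array of WB311 reached any of WB-F344 on this probe set. The second probe set gave -1.16 and -1.25 (limma adjusted p = 0.0212 and 0.0136), with an SE of 0.38 for each. Its WB-F344 values were 1110, 351.5 and 993.3 with vehicle and 929.7, 492.9 and 923.3 with rapamycin. The low ones are the plates numbered 2, on which the brighter probe set read highest. The log2 gap between the probe sets was 3.05 and 2.53 on those plates and 1.01 to 1.25 on the other WB-F344 arrays. Without those plates the line difference with vehicle was -1.18 on the brighter probe set (limma adjusted p = 1.32e-08) and -1.68 on the second (limma adjusted p = 5.34e-08). Whether the RNA integrity of those plates accounts for the gap was not tested.

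**Figure D3:**
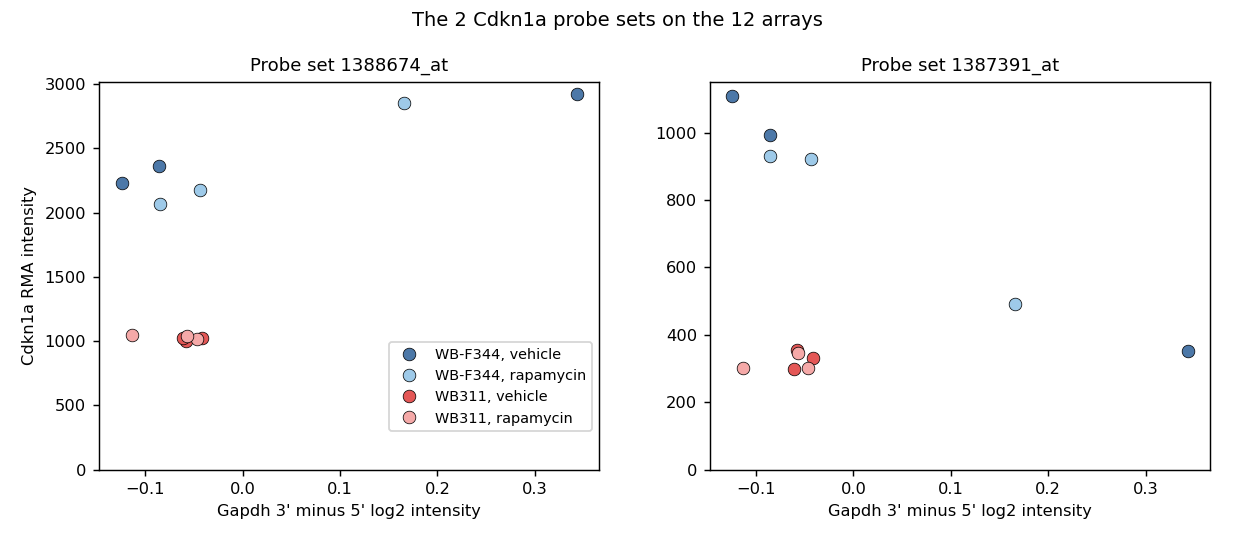
RMA intensity of the Cdkn1a probe sets on the 12 arrays, brighter on the left and dimmer on the right, on linear axes from 0, against the 3' minus 5' log2 intensity of Gapdh. Each point is 1 array; the WB-F344 plates numbered 2 lie to the right of 0.1 and are the highest WB-F344 points on the left and the lowest on the right.

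Cdkn1b encodes p27, which binds cyclin E and Cdk2 and is known to be set mostly by protein turnover. In WB-F344 it read 2593, 2620 and 2380.5 with vehicle and 2735, 2773 and 2563 with rapamycin. The groups overlapped, and the log2 fold change was 0.09 (95% interval -0.05 to 0.23, limma adjusted p = 0.348). In WB311 it read 1957, 1898 and 1925 with vehicle and 2086, 2129 and 1894 with rapamycin, a log2 fold change of 0.08 (95% interval -0.06 to 0.22, limma adjusted p = 0.61). The effects in the lines differed by -0.01, with a 95% interval of -0.21 to 0.19. Between the lines Cdkn1b was lower in WB311 by a log2 difference of -0.39 with vehicle and -0.40 with rapamycin (limma adjusted p = 0.000318 and 0.000233). The arrays of the lines did not overlap on this probe set. The second Cdkn1b probe set read 30.0 to 91.0 on the 12 arrays and was not tested. With the mean over both probe sets neither line difference was called (limma adjusted p = 0.382 with vehicle and 0.0891 with rapamycin).

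Cdkn1c encodes p57, an imprinted inhibitor of embryonic tissues. It read 15.2 to 20.3 on the 12 arrays and was not tested in any comparison.

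Rb1 encodes the retinoblastoma protein, which binds the activating E2F factors. In WB-F344 it read 97.5, 123.3 and 106.0 with vehicle and 147.8, 163.8 and 161.9 with rapamycin. The groups did not overlap, and the gene rose 1.45-fold, by a log2 fold change of 0.54 ± 0.10 (SE, n = 3 and 3, limma adjusted p = 0.00324). In WB311 it read 158.2, 130.8 and 146.4 with vehicle and 154.3, 129.8 and 148.7 with rapamycin. These overlapped, with a log2 fold change of -0.01 (95% interval -0.24 to 0.22, limma adjusted p = 0.987). The effects differed by -0.55 (limma adjusted p = 0.039), a call that was lost in 12 of 23 alternative settings. With vehicle Rb1 was higher in WB311 by 0.42 (limma adjusted p = 0.00514), and with rapamycin the log2 difference was -0.13 (95% interval -0.36 to 0.10, limma adjusted p = 0.292). Its intensities lie close to 100 in every group.

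Rbl1 encodes p107, a pocket protein that binds the repressive E2F factors and whose own gene is an E2F target. In WB-F344 it read 276.1, 355.3 and 263.1 with vehicle and 229.6, 270.9 and 215.7 with rapamycin. The groups overlapped, and on both treatments the plate numbered 2 was the highest. The log2 fold change of -0.31 ± 0.12 (SE) was not called (limma adjusted p = 0.0735). It was called with the plate number as a block within each line (limma adjusted p = 0.00652), and at -0.28 without both plates numbered 2 (limma adjusted p = 0.0169). In WB311 it read 399.9, 367.6 and 422.1 with vehicle and 485.7, 499.7 and 458.2 with rapamycin. Those groups did not overlap, and the log2 fold change of 0.28 was not called (95% interval 0.02 to 0.54, limma adjusted p = 0.239), although it was called without both WB-F344 plates numbered 2, which enter the shared estimate of spread (limma adjusted p = 0.0136).

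The effects on Rbl1 differed between the lines by 0.60 ± 0.17 (SE, limma adjusted p = 0.0463), a call that was lost in 11 of 24 alternative settings. Rbl1 was higher in WB311 by a log2 difference of 0.42 with vehicle and 1.02 with rapamycin (limma adjusted p = 0.00959 and 1.82e-05). No array of one line overlapped those of the other under either treatment. Rbl1 and Rb1 thus both had more signal in WB311 with vehicle, whereas with rapamycin a line difference was called for Rbl1 but not for Rb1.

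Rbl2 encodes p130, the pocket protein of quiescent cells. It read 91.9, 122.5 and 110.9 with vehicle and 114.9, 152.4 and 122.4 with rapamycin in WB-F344. The groups overlapped, with a log2 fold change of 0.26 (95% interval -0.0012 to 0.52, limma adjusted p = 0.132). In WB311 it read 90.1 to 99.8, just under the intensity required, and the rapamycin effect was not tested there. With rapamycin WB311 was lower by a log2 difference of -0.45 (limma adjusted p = 0.00597), and with vehicle the difference of -0.19 was not called (limma adjusted p = 0.179).

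The promoter windows of Rb1 and Rbl1 are shown because they were the only 2 of the 9 members with a RefSeq window that hold an E2F site as spelled above. The share of all 33469 windows that hold one is 2.14%. The Rb1 and Rbl1 windows hold 55 and 28 CG dinucleotides, against a median of 7 over all windows. Whether base composition accounts for the matches was not tested. For Rb1 the window is chr15:54911808-54912107 on the minus strand, and the match, TTTCCCGC, begins at base 3 after the transcript start. For Rbl1 it is chr3:166289327-166289626 on the minus strand, and the match, TTTCGCGC, begins 18 bases before the start. Capitals mark the matches. These genes did not move together with rapamycin in WB-F344, where Rb1 rose and Rbl1 had a log2 fold change of -0.31. A match describes the letters of the window and no binding was measured.
Rb1: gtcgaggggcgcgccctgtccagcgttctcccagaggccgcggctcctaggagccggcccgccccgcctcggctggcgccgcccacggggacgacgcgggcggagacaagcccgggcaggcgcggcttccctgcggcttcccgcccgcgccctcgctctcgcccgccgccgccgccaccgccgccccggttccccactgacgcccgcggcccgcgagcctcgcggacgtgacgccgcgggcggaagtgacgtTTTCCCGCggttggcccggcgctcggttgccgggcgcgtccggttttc
Rbl1: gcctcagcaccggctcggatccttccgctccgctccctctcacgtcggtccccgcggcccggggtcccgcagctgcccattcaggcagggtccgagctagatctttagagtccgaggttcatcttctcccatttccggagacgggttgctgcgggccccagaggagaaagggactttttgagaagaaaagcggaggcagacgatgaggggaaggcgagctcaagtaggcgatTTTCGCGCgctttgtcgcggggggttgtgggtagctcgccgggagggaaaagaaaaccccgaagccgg

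Across the lines, the inhibitors were mostly lower in WB311 and the pocket proteins mixed. With vehicle 7 of the 9 members tested were called, 5 lower in WB311 and 2 higher, where 55.5% of all probe sets tested were called, 27.9% lower and 27.6% higher. With rapamycin 8 of 9 were called, 6 lower and 2 higher, where 58.8% were called, 25.8% lower and 33.0% higher. The arrays of the lines did not overlap for 66.4% of all probe sets with vehicle and 72.3% with rapamycin. The median log2 difference of the members tested was -0.39 with vehicle and -0.40 with rapamycin, against 0.02 and 0.06 over all probe sets tested. Those called lower in WB311 with vehicle were Cdkn1a, Cdkn1b, Cdkn2a, Cdkn2b and Cdkn2d, all inhibitors, and those called higher were Rb1 and Rbl1. Cdkn2a, Cdkn2b and Rbl2 averaged under 100 in WB311 and entered both comparisons through WB-F344 alone, so the filter itself favoured a lower call for them. Of the inhibitors above 100 in both lines, Cdkn1a, Cdkn1b and Cdkn2d were called lower under both treatments. Cdkn2c was not called with vehicle and was called higher in WB311 with rapamycin, at 0.41 (limma adjusted p = 0.000195). Each line comparison shares its samples with the rapamycin comparisons.

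**Figure D4:**
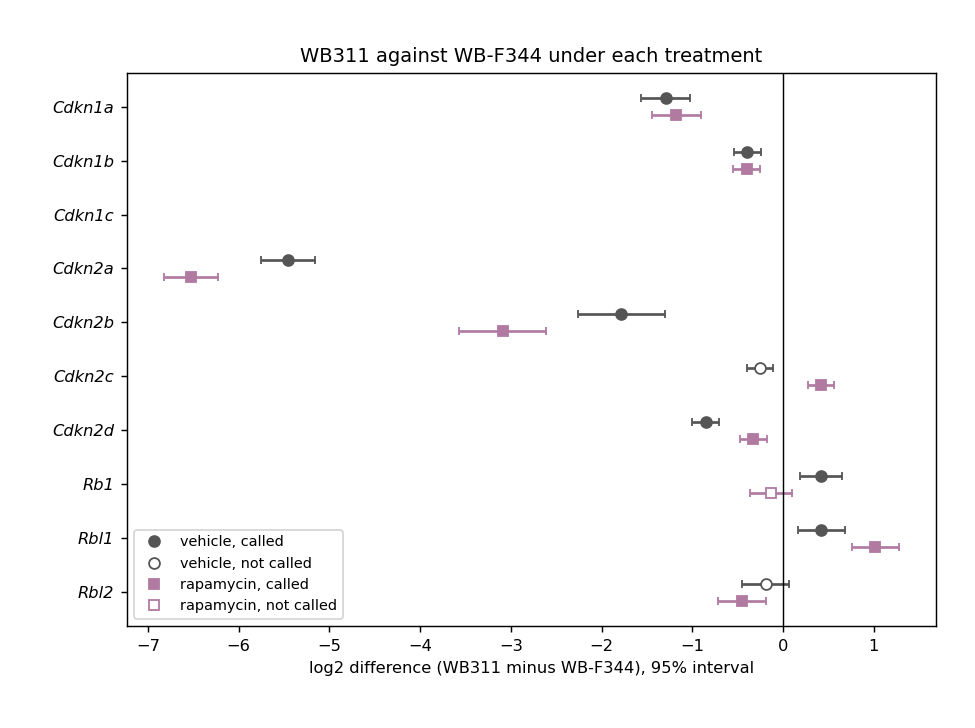
Log2 difference, WB311 minus WB-F344, for each member tested, with its 95% interval from the limma fit; circles are vehicle, squares rapamycin, and filled symbols were called. Cdkn2a lies near -5.46 and -6.53, and Cdkn2c changes side between the treatments.

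The difference of the rapamycin effects between the lines passed the test for 6 of the 9 members tested, of which 4 were measured above an intensity of 100 in both lines. Of all probe sets tested for this difference 10.7% were called, 7.34% higher and 3.33% lower. Of those 4, the signed difference, WB311 minus WB-F344, was positive for Cdkn2c, Cdkn2d and Rbl1 and negative for Rb1. The sign does not tell in which line the response was larger. Cdkn2a (-1.07, limma adjusted p = 0.00545) and Cdkn2b (-1.31, limma adjusted p = 0.021) entered the test through their WB-F344 intensities alone. Their WB311 arrays were all under 100, so a difference between the responses of the lines is not established for either. The Cdkn2b value also missed the threshold in 6 of 24 alternative settings, at an adjusted p of up to 0.0586. Cdkn1a and Rbl2 gave differences of 0.11 (95% interval -0.27 to 0.50) and -0.26 (95% interval -0.63 to 0.11), neither called.

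In WB-F344 with rapamycin 5 of the 9 cyclin and kinase genes tested fell and 2 rose. Of all probe sets tested there 15.0% were called lower and 7.58% higher, which is the background for each WB-F344 list count below. Ccna2, the cyclin of S phase, fell by 0.81 on the log2 scale (limma adjusted p = 8.4e-05), Cdk2 fell by 0.63 (limma adjusted p = 0.000167) and Cdk1 fell by 0.47 (limma adjusted p = 0.000465). The 2 that rose were the D cyclins Ccnd1, by 0.74, and Ccnd2, by 0.64 (limma adjusted p = 0.000626 and 0.0136). In WB311 Ccnd1 alone of the 9 was called, by 0.55 (limma adjusted p = 0.0182), where 3.72% of all probe sets were called. The difference of effects between the lines was called for 6 of the 9, among them Cdk1 (0.63, limma adjusted p = 0.002). Of all probe sets tested for this difference 10.7% were called.

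The E2F target genes of S phase entry fell together in WB-F344. Of the 15 tested 14 fell and none rose, with a median log2 fold change of -0.50 against -0.05 for all probe sets. Cdt1, which licenses replication origins, fell by 0.80 (limma adjusted p = 4.83e-06), Rpa2 by a log2 fold change of -0.51 and the ribonucleotide reductase gene Rrm1 by one of -0.58. The same 14 to 0 split was found without both plates numbered 2. In WB311 none of the 15 was called by limma, with a median of 0.01, and 1 had an unadjusted p under 0.05. The difference of effects, WB311 minus WB-F344, was called for 12 of the 15, all positive, against 7.34% of all probe sets called positive. With vehicle 9 of the 15 were higher in WB311 and none lower, which became 10 and 1 without both plates numbered 2. With rapamycin 14 were higher. Of all probe sets tested 27.6% were called higher in WB311 with vehicle and 33.0% with rapamycin.

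The lists of E2F and DP factors, of DREAM and MuvB genes and of corepressors each held fewer called genes in WB-F344 than the E2F targets. Of all probe sets tested there 22.6% were called. Of the 8 E2F and DP genes tested 2 fell, E2f1 by 0.45 and E2f8 by 0.85 on the log2 scale (limma adjusted p = 0.00801 and 0.0143), and none rose. Of the 7 genes listed for the DREAM and MuvB complexes 4 fell and none rose. Among the 4 were Mybl2, with a log2 fold change of -0.77, Foxm1 with -0.58 and Lin9 with -0.44. The median log2 fold change of the 7 was -0.44, against -0.05 for all probe sets tested. In WB311 none of 9 E2F and DP genes was called by limma, with 1 at an unadjusted p under 0.05, and Foxm1 was called higher, at 0.31 (limma adjusted p = 0.045). Of the 10 chromatin corepressors of the pocket proteins, Kdm5a rose by 0.36 and Dnmt1 fell by 0.34 in WB-F344, and in WB311 none was called by limma, with 4 at an unadjusted p under 0.05. With vehicle 6 of the 9 E2F and DP genes were higher in WB311, where 27.6% of all probe sets tested were called higher. Among them E2f2 had a log2 difference of 2.44. It averaged 29.1 in WB-F344, far under 100, and 157.1 in WB311. E2f2 thus entered the test through WB311 alone, and the size of its difference is not established.

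Regulators of the inhibitors were less uniform, and their counts in WB-F344 lay near the 22.6% of all probe sets called there. Of 11 genes for ubiquitin ligases and kinases that act on the inhibitor proteins, 2 fell with rapamycin in WB-F344, Dtl by 0.52 and Akt1 by 0.38 on the log2 scale, and in WB311 none was called by limma, with 1 at an unadjusted p under 0.05. Of 17 transcription regulators of the inhibitor genes, 3 rose and 2 fell in WB-F344. Myc, a repressor of Cdkn2b and Cdkn1a among many roles, rose there by 1.44 (limma adjusted p = 7.93e-07). Id2 fell by 1.12, and Ezh2, the Polycomb methyltransferase known to silence the Cdkn2a locus, fell by 0.46 (limma adjusted p = 0.00232). In WB311 Myc, Id1 and Hes1 rose, by 0.50, 0.33 and 0.31. With vehicle WB311 was higher in Myc by a log2 difference of 1.87 and in Id2 by 2.18.

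**Figure D5:**
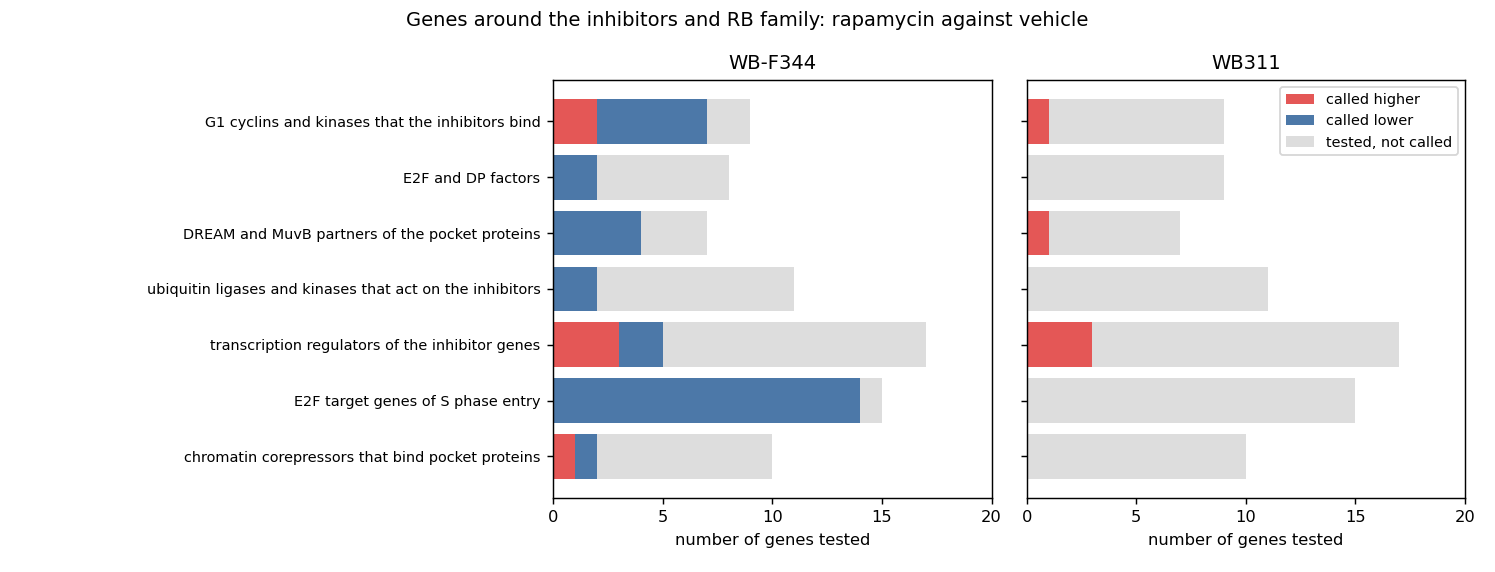
Number of genes tested in each pathway list, called higher, called lower or not called with rapamycin against vehicle, in WB-F344 and WB311. In WB-F344 the bar for E2F targets is almost all called lower, 14 of 15, and in WB311 it holds no called gene.

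The genes whose log2 intensity ran most like a member over the 12 arrays were found for 1 member of each family, among 8659 genes. For Cdkn1b they were Vgll3, Msi2 and Pon2, with Pearson correlations of 0.985, 0.983 and 0.983. For Cdkn2c they were Hilpda (0.971), Pgf (0.970) and Cavin3 (0.957). For Rbl1 they were Dnmt1 (0.992), Cntrl (0.989) and Rapgef3 (0.988). The 12 points share 4 groups and the line difference, so these are descriptions and carry no test.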

How the data were processed

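RNA from 12 plates was hybridised to 1 Affymetrix Rat Genome 230 2.0 array each. The authors normalised the arrays by RMA and deposited the values as linear intensities for 31099 probe sets, of which 57 are array controls. The software version and genome build are not given in the sources used here, and every data column belongs to a labelled sample. RMA adjusts array distributions to each other, so values are relative within an array, and their number limits the precision. Log2 of the intensities was taken, and a linear model with 4 groups was fitted to all 12 arrays (R 4.3.3, limma 3.58.1), with moderation over the tested probe sets. Gene symbols came from the GEO platform annotation, in which 20826 probe sets carry 1 symbol, 436 several and 9780 none. Promoters came from RefSeq for GRCr8, matched by symbol for 9 of 10 members. The scripts were tested on simulated data.

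Members, pathway lists and tests were chosen with earlier results of these data known. Named besides the members were up to 3 called genes of smallest p from each list and comparison, and markers. Also named were the nearest measured neighbours of Cdkn2a and Cdkn2b and 3 genes most correlated with Cdkn1b, Cdkn2c and Rbl1. Neighbours of Cdkn1c and Rb1 were measured too and are not described here. In WB-F344 the deviations of same-numbered plates from their group means correlated at 0.56 to 0.87 over 14214 probe sets, and in WB311 at -0.14 to -0.00026. The numbers thus pointed to a pairing of plates in WB-F344 only. The main fit has no term for the plate number, so its p-values are unpaired, and fits with a block were run as alternatives. Plates 1 and 3 of WB-F344 also correlated across numbers, at 0.61 and 0.58, so the pairing there sets plate 2 apart but not plates 1 and 3 from each other. The alternatives changed the filter, the test, the samples in the fit, the scaling, the offset, the probe set rule, the block and the weights, or left out plates. Moderation over all probe sets was added after seeing the data. The methods' t-test was run as one alternative.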

Additional observations from a re-analysis of the deposited data

Results flagged for a closer look

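For 4 members measured in both lines the effect of rapamycin differed between WB-F344 and WB311 by the limma test of that difference, given here as log2 values, WB311 minus WB-F344. The differences were 0.67 for Cdkn2c, 0.52 for Cdkn2d, 0.60 for Rbl1 and -0.55 for Rb1. The call was lost in 11 of 24 alternative settings for Rbl1 and in 12 of 23 for Rb1. It was lost in 1 of 24 for Cdkn2c and in 0 of 24 for Cdkn2d. In the main fit Rbl1 was called with rapamycin in neither line alone. For Cdkn2c, Cdkn2d and Rbl1 the group means moved in opposite directions in the lines. Cdkn2a and Cdkn2b gave -1.07 and -1.31 in the same test, but every WB311 array lay under an intensity of 100, so no response was measured in that line and a difference of responses is not established for them.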

How the results depend on the processing

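Under the 26 alternatives no called member reversed its direction. The methods' t-test called 2 members with rapamycin in WB-F344, Cdkn2a and Cdkn2c, in place of 4. The count in WB311 was 0 with no intensity filter, with a group average of at least 200 required (where Cdkn2d was not tested), with the methods' t-test, cyclic loess, an offset of 16, the mean over probe sets, the replicate block over all arrays or moderation over all probe sets, while 3 members had an unadjusted p under 0.05 in the limma test as reported. It was 2, Cdkn2d and Rbl1, with only the groups compared in the fit, with array weights, with the replicate block within each line or without both WB-F344 plates numbered 2. The cause was not tested. With plates left out singly, the count ran from 0 to 1 in WB311, from 4 to 5 in WB-F344, from 7 to 8 between the lines with vehicle, and stayed at 8 with rapamycin. It ran from 3 to 6 for the difference of effects, Cdkn2a and Cdkn2b included, and was 3, Cdkn2a, Cdkn2c and Cdkn2d, without rapamycin plate 3 of WB-F344, vehicle plate 1 of WB311 or rapamycin plate 1 or 2 of WB311. Without any 1 of the 6 WB311 plates, vehicle plate 3 of WB-F344 or rapamycin plate 1 or 3 of WB-F344, no member was called in WB311. The replicate block within each line gave 5 members in WB-F344, adding Rbl1 at an adjusted p of 0.00652, and 6 for the difference of effects. The mean over probe sets ended the calls for Cdkn1b between the lines and for Cdkn2c, whose second probe sets average under 100. Intensities near or under 100 limit what could be seen for Rb1, Rbl2, Cdkn2b and Cdkn1c.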
